A study of Mus musculus with 9 samples.

Results

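The genes described here encode 37 enzymes and carriers of central carbon metabolism, from glucose uptake through glycolysis, the pentose phosphate pathway and the tricarboxylic acid (TCA) cycle. They were taken by pathway, as a given list of symbols that used no measured value, and each was found in the count table by its NCBI Gene number. All 37 were among the 27179 gene identifiers of the table and all 37 were among the 13129 genes with enough counts to be tested. RNA immunoprecipitation sequencing (RIP-seq) was used to ask which RNAs come down with phosphorylated UPF1 (p-UPF1). Every library came from wild-type mouse splenic B cells, purified as CD43- cells and stimulated for 72 h with IL-4 (20 ng/mL), anti-IgM antibody (10 ug/mL) and a CD40 stimulus (5 ug/mL) that the labels call CD40L and the study's methods call an anti-CD40 antibody. The 3 groups were RNA precipitated with an anti-p-UPF1 antibody, RNA precipitated with normal rabbit IgG, and RNA of the lysate before precipitation (input), with 3 libraries each. There was no unstimulated or UPF1-deficient group, so the values describe association in a single activated state.

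Glycolysis splits glucose to pyruvate in the cytosol, the pentose phosphate pathway diverts glucose phosphate to NADPH and ribose phosphate, and pyruvate dehydrogenase turns pyruvate into the acetyl-CoA that the TCA cycle oxidizes in mitochondria. Activated B cells are known to raise glucose uptake and mitochondrial oxidation. UPF1 is an RNA helicase of nonsense-mediated mRNA decay (NMD), a pathway that degrades mRNAs on which translation ends in an unusual context, and its phosphorylation marks the recruitment of decay factors.

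Total counts were 19873687 to 24945286 per input library, 17372510 to 18550508 per IgG library and 23251890 to 24802119 per p-UPF1 library. Libraries of a group correlated with each other at r = 0.998 for input, 0.990 to 0.993 for IgG and 0.998 for p-UPF1 (log2 values across genes). The 6 B cell markers summed to between 2398 and 3223 CPM (counts scaled to library size) in every library, while the 5 T cell markers summed to at most 0.917 CPM and the 5 myeloid markers to at most 0.730 CPM. Of the remaining markers, 1 of 2 for NK cells and 2 of 3 for erythroid cells had no count in any library. Summed over their lists, NK markers reached at most 0.162 CPM in input, 0.102 CPM with IgG and 0.499 CPM with p-UPF1, erythroid markers 0.353, 0.266 and 0.858 CPM, and the 2 stroma markers 1.05, 1.44 and 3.04 CPM, so all 3 sums were highest with p-UPF1, and their part in the members' values was not tested. The 2 plasma cell markers summed to 17.9 to 26.2 CPM. The labels number the libraries of a group as replicates without naming separate mice or cultures, so P values measure the spread between these libraries, which may be technical. All levels are relative to the other RNAs of a library, because no spike-in was counted. By the study's methods, input was a part of the cell lysate, and the rest of the lysate was incubated with an antibody. The groups were therefore compared as RNA recovered from lysate. For the level in a lysate, fewer cells of a type cannot be told apart from less RNA per cell in such bulk material.

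Most of the 37 mRNAs were lower in the p-UPF1 precipitate, relative to the other RNAs there. Relative to IgG, 33 of the 37 mRNAs were lower with p-UPF1, 2 were higher and 2 did not pass the test (edgeR's quasi-likelihood test, Benjamini-Hochberg adjusted P under 0.05 over all tested genes). Among all 13129 tested genes, 42.2% were lower and 40.4% were higher by the same rule. The median log2 fold change was -1.45 over the 37 mRNAs and -0.03 over all tested genes, of which the middle 50% lay between -0.89 and 0.90. A log2 fold change of -1 or less was reached by 26 of the 37, against 21.9% of all tested genes, and a log2 fold change of 1 or more was reached by 1 of the 37, against 22.2%. Together the 37 mRNAs held 0.862% ± 0.00729 of the input counts, 0.751% ± 0.0138 of the IgG counts and 0.355% ± 0.0112 of the p-UPF1 counts (SD, n = 3 each), so their share was 2.12-fold smaller with p-UPF1 than with IgG.

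The comparison with input shares the p-UPF1 libraries with the comparison with IgG and is not independent of it. Over input, 34 of the 37 mRNAs were lower with p-UPF1 and 2 were higher, against 42.6% and 40.8% of all tested genes. The median was -1.69 over the 37 mRNAs and -0.03 over all tested genes. By library values alone, the 3 p-UPF1 libraries lay below the 3 IgG libraries for 33 of the 37 mRNAs and below the 3 input libraries for 34, where 41.5% and 45.0% of all tested genes did so. They lay above IgG for 2 and above input for 2, against 40.6% and 43.2% of all tested genes. None of the 37 met the criterion by which the study's methods define a p-UPF1 target, called the combined criterion here (adjusted P under 0.05 in both comparisons, with log2 fold changes of 1 or more against IgG and 2 or more against input), which 6.25% of all tested genes met. The count was also 0 of 37 at an unadjusted P under 0.05 in edgeR, with DESeq2 and with limma-voom. A looser P could not raise the edgeR count, since the largest log2 fold change of the 37 over input was 1.22, short of 2.

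**Figure D1:**
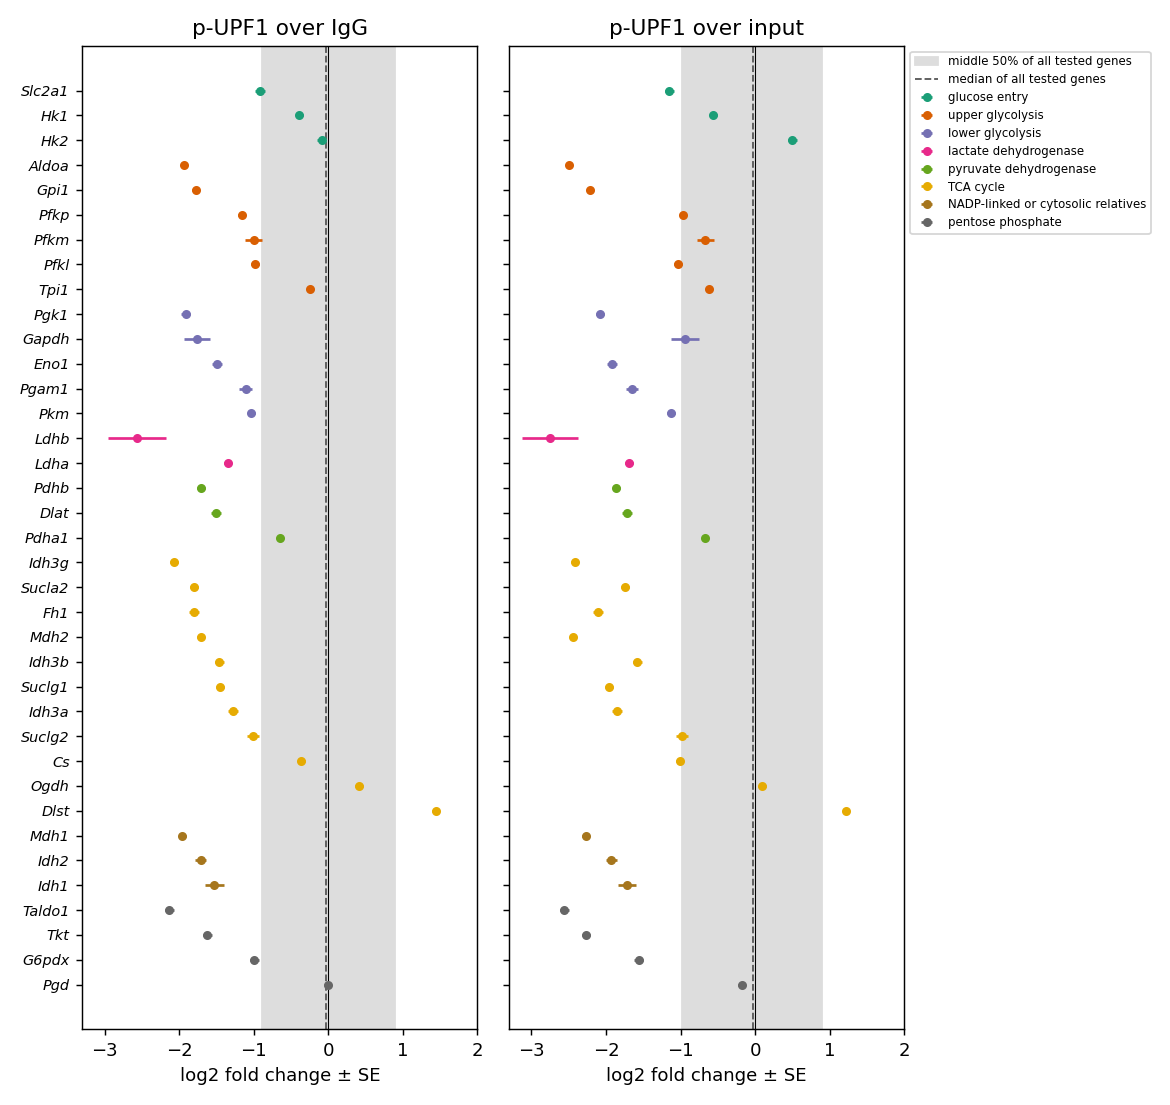
Log2 fold change (± SE) of each of the 37 mRNAs with p-UPF1 over IgG (left) and over input (right), colored by role, with the middle 50% of all tested genes in gray. Most points lie to the left of the gray band, *Dlst* lies alone to the right of it at 1.44 and 1.22, and *Pgd* (-0.01) and *Hk2* (-0.09) lie nearest to 0 over IgG.

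Differences between the IgG precipitate and input were smaller for these mRNAs. Of the 37 mRNAs, 25 were lower in IgG than in input and 4 were higher, against 34.7% and 18.2% of all tested genes, and the median log2 fold change was -0.23 against -0.10 over all tested genes. The values ran from -0.72 for *Mdh2* to 0.82 for *Gapdh*, and the other 3 higher mRNAs were *Hk2* (0.58), *Pfkm* (0.33) and *Pfkp* (0.19). The *Pfkm* call was lost without input library B (0.27, edgeR adjusted P = 0.0921) or without input library C (0.32, adjusted P = 0.06095). *Pgk1* no longer passed as lower without input library B (-0.17, edgeR adjusted P = 0.0518). *Idh3b*, not called as reported, passed as lower without IgG library A (-0.20, edgeR adjusted P = 0.001648). Scaling set this split in part. With libraries scaled by their totals alone, 5 of the 37 were higher in IgG and 18 were lower, with a median of -0.11. The median of all genes moved by 0.12 in this comparison, to 0.01. The share of higher calls among all called genes was 52.6% in place of 34.4%.

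The sequence around the stop codon is where UPF1 is thought to act when translation ends, so the annotated stop codon (capitals) is shown with 15 bases before and 12 after it for the 2 mRNAs that were higher over IgG and the 3 that were lowest. The sequences were read from the longest coding transcript of each gene (GENCODE M21), and the stop codons were placed on GRCm38 (mm10). They lie at chr12:85132751-85132753 on the plus strand for *Dlst*, chr11:6355672-6355674 on the plus strand for *Ogdh*, chr6:142490437-142490439 on the minus strand for *Ldhb*, chr7:141402774-141402776 on the plus strand for *Taldo1* and chrX:73779070-73779072 on the minus strand for *Idh3g*.
Dlst: ctcctcctagaccttTAGgaggaagccaca
Ogdh: ttcaagaaattctctTAGatgctcctggag
Ldhb: gacctcaaagacctgTGActgccagtctct
Taldo1: gctgagaacgggaagTAGtgcaacacccga
Idh3g: cgggctgtggaggctTAGctatccctacag
*Dlst*, *Ogdh*, *Taldo1* and *Idh3g* end in TAG and *Ldhb* in TGA, so TAG was found among the highest and the lowest values. Over the 37 mRNAs, TAA ended 10, TAG 12 and TGA 15, with median log2 fold changes over IgG of -1.50, -1.37 and -1.16. Over all 11727 tested genes with a complete coding transcript, TAA ended 25%, TAG 23.3% and TGA 51.7%, with medians of -0.18, 0.05 and 0.105, which run in the same order.

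Glucose entry comprises the uptake carrier *Slc2a1* (GLUT1) and the hexokinases *Hk1* and *Hk2*, which trap glucose as its phosphate. Of the 3 mRNAs, 2 were lower over IgG and 2 were lower over input. *Hk2* (chr6:82725025-82774454, minus strand) measured 111, 113 and 118 CPM in the input, 160.1, 171 and 181 CPM in the IgG and 149, 159 and 174 CPM in the p-UPF1 libraries. The IgG and p-UPF1 values of *Hk2* overlapped, and both groups lay above input. Its log2 fold change was -0.09 ± 0.057 (SE) over IgG (edgeR adjusted P = 0.167) and 0.50 ± 0.058 over input (adjusted P = 6.39e-07), while IgG over input was itself 0.58 ± 0.058. The *Hk2* call over IgG was not stable, since it passed as lower without p-UPF1 library C (-0.14, adjusted P = 0.0329), without IgG library A (-0.13, adjusted P = 0.0276) and under 3 other scalings (-0.25 to -0.17). *Hk1* measured 91.6, 97.6 and 93.5 CPM in input, 81.5, 85.9 and 84.2 CPM in IgG and 61.4, 64.4 and 66.0 CPM in p-UPF1. Its p-UPF1 values lay below both other groups (log2 fold change over IgG -0.39 ± 0.048, edgeR adjusted P = 1.05e-06). *Slc2a1* fell from 43.9 ± 3.74 CPM in IgG to 23.2 ± 0.720 CPM with p-UPF1 (SD, n = 3 each).

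Upper glycolysis converts glucose phosphate to triose phosphates, and all 6 of its mRNAs were lower with p-UPF1 than with IgG and than input. *Aldoa* (chr7:126795234-126800994, minus strand) encodes the aldolase that splits fructose bisphosphate. It was the most abundant of the 37 in input per kilobase of exon (450 CPM per kb). Its 3 input libraries held 1065, 1105 and 1096 CPM, its IgG libraries 731, 739.5 and 736 CPM and its p-UPF1 libraries 182.5, 199 and 197 CPM. The groups did not overlap, and *Aldoa* fell by 1.93 over IgG (SE 0.040, edgeR adjusted P = 1.45e-16) and by 2.50 over input on the log2 scale. *Gpi1*, the isomerase that makes fructose phosphate, was also lower, from 458 ± 7.65 CPM in IgG to 133 ± 6.48 CPM with p-UPF1 (log2 fold change -1.78).

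The 3 phosphofructokinase subunits, which carry out the committed step of glycolysis, were all lower. *Pfkl* measured 113, 113 and 117 CPM in input, 103, 116 and 113 CPM in IgG and 53.3, 57.7 and 57.3 CPM in p-UPF1. *Pfkp* measured 262, 271 and 262 CPM in input, 289, 316 and 303 CPM in IgG and 129, 137 and 139.8 CPM in p-UPF1. *Pfkm*, the muscle-type subunit, was far lower, at 9.17, 8.07 and 8.66 CPM in input, 11.5, 10.4 and 10.7 CPM in IgG and 5.31, 5.01 and 5.94 CPM in p-UPF1. All 3 had p-UPF1 values below every IgG and input value, with log2 fold changes over IgG of -0.98 ± 0.053, -1.16 ± 0.045 and -1.0 ± 0.114, and over input of -1.03, -0.97 and -0.67, in the same order. *Pfkm* shares 300 exonic bases with *Senp1* on the opposite strand, which rose from 74.7 to 199 CPM, so without strand information some *Pfkm* counts could belong to *Senp1*, and its part in the *Pfkm* value was not tested.

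*Tpi1* (chr6:124810586-124814158, minus strand), the triose phosphate isomerase, stood apart from the other mRNAs of upper glycolysis. It measured 369.5, 378.5 and 365 CPM in input, 272, 292 and 286 CPM in IgG and 243, 241 and 238 CPM in p-UPF1. The groups did not overlap, but the fall over IgG was only 0.24 on the log2 scale (SE 0.039, edgeR adjusted P = 3.33e-05), compared with 0.62 over input. In 1 other place of the genome a stretch of at least 300 bases matched the *Tpi1* transcript at 95% identity or more, and how reads shared with it were counted was not tested.

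Lower glycolysis, from glyceraldehyde phosphate to pyruvate, was lower throughout, with 5 of 5 mRNAs below IgG and a median log2 fold change of -1.49. *Pgk1*, the first ATP-producing kinase of the pathway, fell from 307 ± 20.2 CPM in IgG to 81.8 ± 7.08 CPM with p-UPF1 (log2 fold change -1.91). *Pkm*, the pyruvate kinase that ends glycolysis, was among the most abundant of all members and was lower by less, from 1077 ± 54.8 to 526 ± 36.0 CPM (-1.03). *Eno1* and *Pgam1*, which encode the enolase and the mutase between them, gave -1.49 and -1.11. The value of *Gapdh* is uncertain, since only 8.80 ± 1.75 CPM in input, 15.7 ± 3.78 CPM with IgG and 4.61 ± 0.634 CPM with p-UPF1 were counted for this usually abundant mRNA. Its transcript matched 44 other genomic loci at 95% identity or more over at least 300 bases, as did *Pgk1* and *Eno1* at 4 loci each, *Pgam1* at 2, and *Pkm*, *Ldhb*, *Pdhb* and *Suclg2* at 1 each. How the reads of such copies were counted was not tested.

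Lactate dehydrogenase reduces pyruvate to lactate, and both of its subunits were lower. *Ldha* measured 591, 613 and 584 CPM in input, 441, 485 and 487 CPM in IgG and 176, 194 and 184 CPM in p-UPF1. Its log2 fold change over IgG was -1.35 ± 0.048 (edgeR adjusted P = 1.12e-13). *Ldhb* (chr6:142490249-142507957, minus strand) had the lowest value of all 37 mRNAs at -2.57 ± 0.389 (edgeR adjusted P = 1.30e-05). It rested on few reads, with 52, 30 and 47 counts in input, 23, 37 and 43 in IgG and 7, 9 and 4 in p-UPF1, or 2.11, 1.51 and 2.39 CPM, 1.22, 1.89 and 2.21 CPM, and 0.295, 0.406 and 0.181 CPM. The p-UPF1 values lay below every other library, but the SE was the largest of the 37, so its rank is not well determined.

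**Figure D2:**
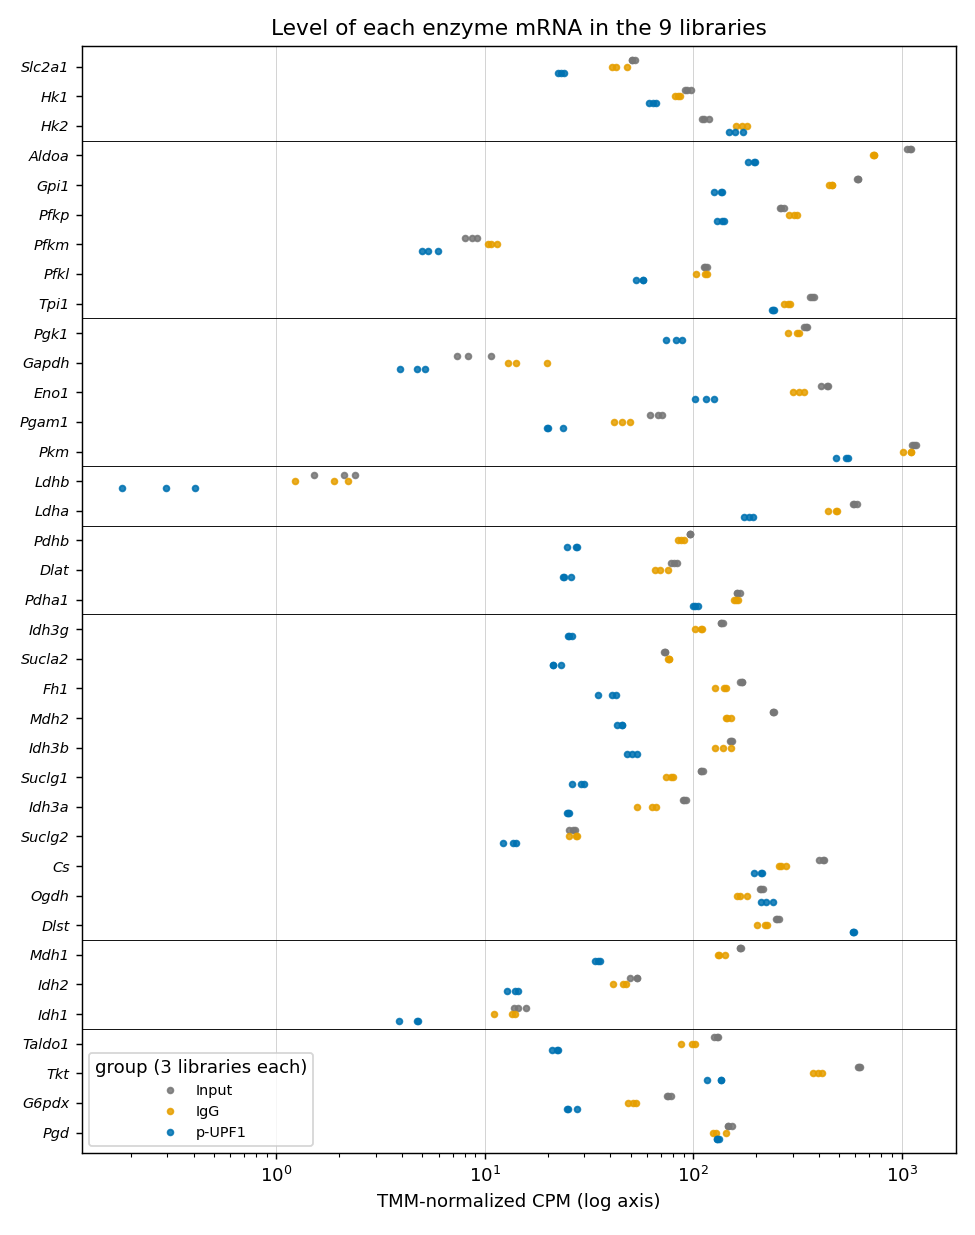
TMM-normalized CPM (log axis) of each of the 37 mRNAs in the 9 libraries, 1 point per library, with lines between the role groups. The p-UPF1 points lie left of the IgG and input points for most mRNAs, right of both for *Dlst*, and overlap the IgG points for *Hk2* and *Pgd*.

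The pyruvate dehydrogenase complex links glycolysis to the TCA cycle, and its subunits differed from each other. *Pdha1*, the alpha subunit of its first enzyme, measured 161.5, 167 and 162 CPM in input, 159.7, 164.5 and 157.5 CPM in IgG and 100.1, 106 and 102 CPM in p-UPF1. *Pdhb*, the beta subunit of the same enzyme, measured 96.1, 96.8 and 96.5 CPM in input, 86.9, 89.8 and 84.1 CPM in IgG and 27.3, 24.9 and 27.6 CPM in p-UPF1. Both fell below every IgG value, *Pdhb* by more (log2 fold change -1.71 ± 0.053 against -0.65 ± 0.041). *Dlat*, the acetyltransferase of the complex, gave -1.51. *Pdha1* shares 598 exonic bases (20.9% of its exonic length) with *Map3k15* on the opposite strand, which held 10.2 CPM with IgG and 7.28 CPM with p-UPF1, and its part in the *Pdha1* value was not tested.

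The TCA cycle held the 2 mRNAs that were higher over IgG, while over input the 2 higher were *Dlst* and *Hk2*, of glucose entry. Of its 11 mRNAs, 9 were lower over IgG and 2 were higher, *Ogdh* and *Dlst*, which encode the first and second enzymes of 2-oxoglutarate dehydrogenase, the complex that turns oxoglutarate into succinyl-CoA. *Dld*, which encodes the third enzyme of that complex and is shared with pyruvate dehydrogenase, is not among the 37 and was lower (log2 fold change -1.20 over IgG and -1.26 over input). *Dlst* (chr12:85110822-85134091, plus strand) measured 252, 257 and 249 CPM in input, 202, 226 and 221 CPM in IgG and 590.4, 585 and 585 CPM in p-UPF1. Every p-UPF1 library was above every other library. *Dlst* was 2.71-fold higher over IgG (log2 fold change 1.44 ± 0.044, edgeR adjusted P = 1.20e-14) and its log2 fold change over input was 1.22 ± 0.043 (adjusted P = 7.86e-14), which is past the IgG limit of the combined criterion and short of its input limit. It shares 64 exonic bases with *Prox2* on the opposite strand, which held 2.85 ± 1.22 CPM with IgG and 9.54 ± 1.24 CPM with p-UPF1 (log2 fold change 1.75), and its part in the *Dlst* value was not tested.

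*Ogdh* (chr11:6291597-6359094, plus strand) measured 209, 211 and 215 CPM in input, 161.5, 167 and 181 CPM in IgG and 212, 222.5 and 240.2 CPM in p-UPF1. Its p-UPF1 values were above every IgG value but overlapped input. The log2 fold change was 0.41 ± 0.051 over IgG (edgeR adjusted P = 1.60e-06) and 0.09 ± 0.051 over input (adjusted P = 0.114). The input comparison of *Ogdh* passed without p-UPF1 library A (0.15, adjusted P = 0.0196) and under 6 other settings of the filter, the scaling, the tool or the samples fitted (0.11 to 0.22). *Ogdh* shares 486 exonic bases with *Gm46270* on the opposite strand, which was not in the count table.

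The other 9 TCA cycle mRNAs ran from -2.07 to -0.36 over IgG. *Cs*, the citrate synthase that opens the cycle, was the least changed of them, from 266 ± 10.9 CPM in IgG to 206.5 ± 9.79 CPM with p-UPF1 (log2 fold change -0.36 ± 0.045), although it was 416 ± 11.2 CPM in input (-1.01). *Idh3g* (chrX:73778963-73786897, minus strand), a regulatory subunit of the NAD-linked isocitrate dehydrogenase, was the lowest of them. It measured 136, 136 and 138 CPM in input, 110.5, 109 and 102 CPM in IgG and 26.3, 25.4 and 24.9 CPM in p-UPF1. Every p-UPF1 library was far below the lowest IgG library, and *Idh3g* fell by 2.07 over IgG (SE 0.050, edgeR adjusted P = 7.98e-16). *Idh3a*, the catalytic subunit, measured 89.6, 92.6 and 90.3 CPM in input, 54.0, 66.0 and 63.6 CPM in IgG and 25.4, 24.9 and 25.1 CPM in p-UPF1 (-1.28). *Idh3b*, the other regulatory subunit, measured 152.7, 150.4 and 152 CPM in input, 151.7, 127 and 139 CPM in IgG and 53.5, 47.9 and 50.8 CPM in p-UPF1 (-1.46).

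Succinyl-CoA synthetase pairs the alpha subunit *Suclg1* with an ATP-forming (*Sucla2*) or a GTP-forming (*Suclg2*) beta subunit. *Sucla2* measured 72.6, 73.6 and 73.3 CPM in input, 76.1, 75.3 and 76.2 CPM in IgG and 21.2, 23.2 and 21.2 CPM in p-UPF1. *Suclg2* measured 26.4, 27.0 and 25.5 CPM in input, 27.4, 27.8 and 25.2 CPM in IgG and 13.7, 14.1 and 12.2 CPM in p-UPF1. Neither passed the test between IgG and input, although every IgG value of *Sucla2* was above every input value and it passed as higher under 5 other settings (0.12 to 0.17). Both were lower with p-UPF1, by 1.80 and 1.01 on the log2 scale. *Fh1*, the fumarase, and *Mdh2*, the mitochondrial malate dehydrogenase, which follow in the cycle, gave -1.80 and -1.71 over IgG. *Suclg1* fell from 77.3 ± 3.07 CPM with IgG to 28.3 ± 1.81 CPM with p-UPF1 (-1.45 over IgG and -1.96 over input).

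The NADP-linked or cytosolic relatives of these enzymes were lower in 3 of 3 cases. *Mdh1* (chr11:21556692-21571934, minus strand), the cytosolic malate dehydrogenase of the malate-aspartate shuttle, measured 167, 169.8 and 167 CPM in input, 132, 133 and 142 CPM in IgG and 34.8, 35.8 and 33.8 CPM in p-UPF1. It fell by 1.96 over IgG (SE 0.047, edgeR adjusted P = 7.22e-16), with no overlap between groups. *Mdh2* measured 241, 241 and 243.5 CPM in input, 143, 151 and 145 CPM in IgG and 43.1, 45.4 and 45.6 CPM in p-UPF1. *Idh1* and *Idh2*, the cytosolic and mitochondrial NADP-linked isocitrate dehydrogenases, both lay below every other library with p-UPF1. *Idh1* measured 14.4, 15.8 and 13.8 CPM in input, 11.1, 14.0 and 13.5 CPM in IgG and 4.72, 4.79 and 3.85 CPM in p-UPF1 (log2 fold change over IgG -1.53). *Idh2* measured 54.0, 53.5 and 49.5 CPM in input, 47.4, 41.2 and 45.8 CPM in IgG and 12.7, 14.5 and 14.0 CPM in p-UPF1 (-1.71).

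In the pentose phosphate pathway the oxidative and non-oxidative enzymes were spread widely. *Pgd* (chr4:149149991-149166705, minus strand), the phosphogluconate dehydrogenase of the oxidative arm, measured 147, 146.5 and 153 CPM in input, 125, 143 and 128.5 CPM in IgG and 130.4, 133 and 129.5 CPM in p-UPF1. The IgG and p-UPF1 values overlapped, and the log2 fold change over IgG was -0.01 ± 0.049 (edgeR adjusted P = 0.808). Its sign turned under 7 of the alternative settings, and it passed as lower with library totals alone (-0.17) and with upper-quartile factors (-0.15). *G6pdx*, which opens the oxidative arm, fell from 51.2 ± 2.36 to 25.8 ± 1.65 CPM (-0.99), although *Ikbkg*, with which it shares 51 exonic bases on the opposite strand, rose from 84.8 to 304 CPM and its part in the *G6pdx* value was not tested. *Taldo1* (chr7:141392160-141402976, plus strand), the transaldolase of the non-oxidative arm, measured 125, 131.5 and 129 CPM in input, 101, 98.4 and 87.0 CPM in IgG and 20.9, 22.4 and 22.2 CPM in p-UPF1. Its groups did not overlap, and it was 4.37-fold lower with p-UPF1 than with IgG (log2 fold change -2.13 ± 0.063, edgeR adjusted P = 8.84e-15). *Tkt*, the transketolase, gave -1.62 over IgG and -2.27 over input.

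Related enzymes were then compared within libraries, as the ratio of the counts of 2 genes, which does not depend on how libraries are scaled to each other. Only changes of a ratio are interpretable, since its level also reflects gene length. Of 12 pairs, the p-UPF1 and IgG ratios did not overlap for 8. Non-overlap was common, since 41.5% of single genes lay wholly lower and 40.6% wholly higher with p-UPF1 than with IgG, so the count of 8 is no result about these enzymes. With 3 libraries against 3 the exact permutation test cannot go below P = 0.1, which all 8 reached, or 0.15 adjusted over the 12 pairs, so none passed 0.05. The ratio of *Pdha1* to *Pdhb* was 1.84, 1.83 and 1.87 in IgG and 3.66, 4.24 and 3.70 in p-UPF1 libraries, a 2.09-fold difference between subunits of the same enzyme. The ratio of *Idh3a* to *Idh3g* was 0.489, 0.606 and 0.624 in IgG and 0.965, 0.982 and 1.005 in p-UPF1, and that of *Idh3b* to *Idh3g* was 1.37, 1.17 and 1.37 in IgG and 2.03, 1.89 and 2.04 in p-UPF1. *Idh3g* was thus lower relative to both partner subunits. The ratio of *Sucla2* to *Suclg2* went the other way, from 2.78, 2.71 and 3.02 in IgG to 1.55, 1.65 and 1.73 in p-UPF1.

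The remaining pairs included enzymes of the same activity in other tissues or compartments. *Hk1* to *Hk2* was 0.509, 0.503 and 0.466 in IgG and 0.412, 0.405 and 0.380 in p-UPF1, but 0.828, 0.864 and 0.790 in input, so most of that difference from input was also present with IgG. *Mdh1* to *Mdh2* was 0.920, 0.879 and 0.978 in IgG and 0.807, 0.789 and 0.740 in p-UPF1, but 0.694, 0.704 and 0.686 in input, so the p-UPF1 ratio lay below IgG and above input. *Pfkl* to *Pfkp* was 0.356, 0.367 and 0.374 in IgG and 0.412, 0.422 and 0.410 in p-UPF1. Neither of the last pairs differed by more than 1.19-fold between p-UPF1 and IgG. *Ldha* to *Ldhb* differed the most of all 12 pairs, at 2.42-fold, and rests on the few *Ldhb* counts. The ratios of *Pfkl* to *Pfkm*, *Pfkm* to *Pfkp*, *Idh1* to *Idh2* and *Idh3a* to *Idh3b* overlapped between IgG and p-UPF1. Against input, 10 of the 12 pairs did not overlap with p-UPF1, at a smallest possible adjusted P of 0.12, where 45.0% of single genes lay wholly lower and 43.2% wholly higher, and nothing is read from this count either.

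**Figure D3:**
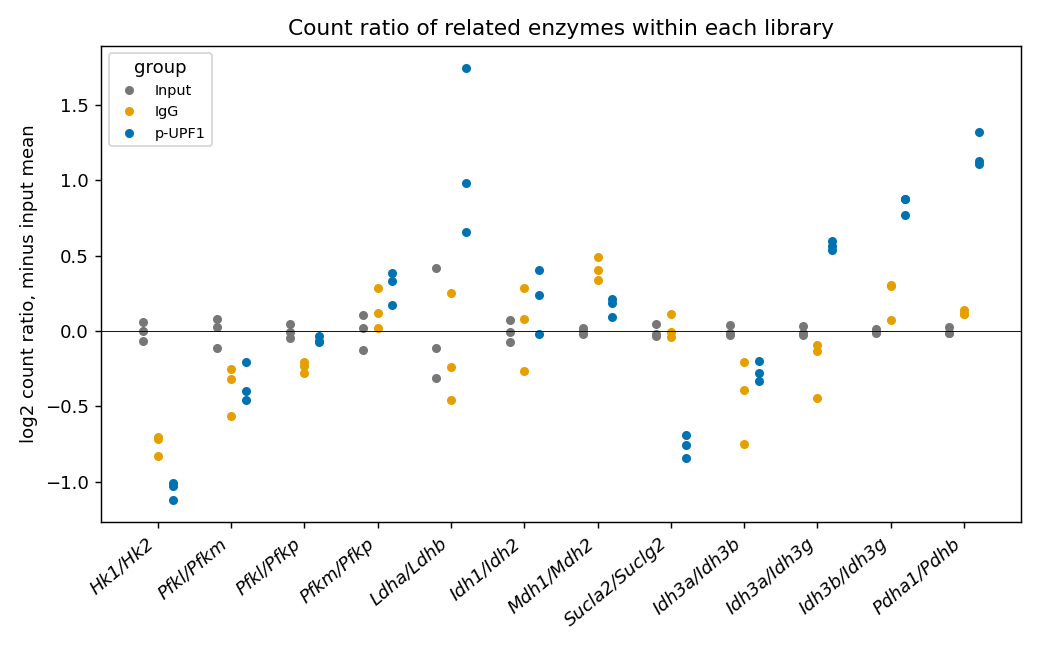
Log2 ratio of the counts of 2 related enzymes within each library, minus the mean over the 3 input libraries, 1 point per library. *Pdha1* to *Pdhb* and *Idh3b* to *Idh3g* are higher with p-UPF1 (blue) than in every input and IgG library, *Sucla2* to *Suclg2* is lower, and the *Ldha* to *Ldhb* points scatter the most.

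Transcript structure was examined because NMD is known to act on some mRNAs with long 3′ untranslated regions (UTRs), and it was not used to choose the members. The median 3′ UTR of the 37 mRNAs was 694 bases, compared with 1134 bases over the 11727 tested genes with a complete coding transcript, and 26 of the 37 were shorter than that. Coding lengths differed less, with medians of 1305 and 1380 bases, and the members had a median of 11 exons against 9. Across the 37 mRNAs, those with longer 3′ UTRs had higher log2 fold changes over IgG (Pearson's r = 0.55, Spearman's rho = 0.585, on log2 length). Across all 11727 genes the same correlations were 0.31 and 0.32. Total transcript length, which includes the 3′ UTR, gave 0.54 and 0.61 across the 37 and 0.30 and 0.27 across all genes. Coding length gave 0.40 and 0.42 across the 37, but 0.135 and 0.12 across all genes. Of the 37, 28 had transcripts shorter than the median of all genes. These correlations describe genes measured in the same libraries, and genes are not independent replicates. The 3 lowest mRNAs had 3′ UTRs of 188 (*Ldhb*), 190 (*Taldo1*) and 107 bases (*Idh3g*), and the 2 higher mRNAs had 3′ UTRs of 1335 (*Dlst*) and 968 bases (*Ogdh*).

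The members were also described by range of 3′ UTR length. Genes were divided into quartiles of 3′ UTR length over all 11727 genes. In the shortest quartile, under 475 bases, the 13 members had a median log2 fold change of -1.71 and all genes had -0.72. In the next quartile the 13 members had -1.11 and all genes 0.06, and in the third quartile, from 1134 bases, the 10 members had -0.99 and all genes 0.41. *Hk2*, at 2285 bases, was the only member in the longest quartile, with -0.09 over IgG and 0.50 over input where all genes had medians of 0.33 and 0.39.

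**Figure D4:**
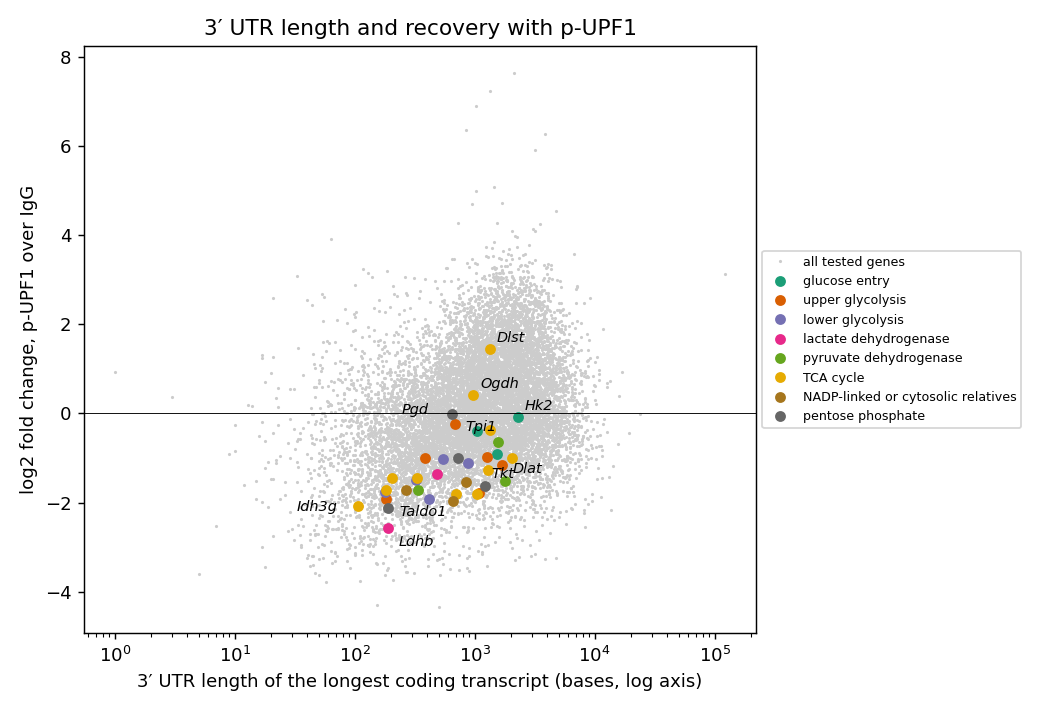
Length of the 3′ UTR (bases, log axis) against the log2 fold change of p-UPF1 over IgG for all tested genes with a 3′ UTR (gray) and the 37 members (colored by role). Most members lie low within the gray cloud at their own length, and *Dlst*, at 1335 bases and 1.44, lies above the other members.

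Abundance also went with the p-UPF1 value. Per kilobase of exon, the members had a median of 59.5 CPM per kb in input, compared with 8.22 over all genes, and 20 of the 37 lay above the 90th percentile of all genes (57.2 CPM per kb). The median log2 fold change over IgG of all genes above that percentile was -1.16, and that of the 20 members above it was -1.55. Among the 37, abundance and log2 fold change showed no clear relation (Pearson's r = 0.02, Spearman's rho = -0.17), while over all genes they were negatively related (-0.31 and -0.30). The part of abundance or 3′ UTR length in the low values of the members was not tested.

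A second list held other genes of the same pathways that are not among the 37. Of 51 such genes, 44 had enough counts to be tested, and 20 were higher and 20 lower with p-UPF1 than with IgG (median log2 fold change -0.02). These shares are near those of all tested genes, 40.4% higher and 42.2% lower. Over input, 18 were higher and 21 lower, against 40.8% and 42.6%. The combined criterion was met by 4 of the 44, *Pfkfb3*, *Pfkfb4*, *Pgam2* and *H6pd*, and by 6.25% of all tested genes. *Pfkfb3* and *Pfkfb4* encode bifunctional enzymes that set the level of the fructose bisphosphate isomer that activates phosphofructokinase, and so regulate the flux that *Pfkl*, *Pfkm* and *Pfkp* carry. *Pfkfb3* measured 55.7, 56.8 and 55.9 CPM in input, 60.8, 62.7 and 63.6 CPM in IgG and 498, 529 and 541 CPM in p-UPF1 (log2 fold change 3.07 over IgG and 3.22 over input, edgeR adjusted P = 4.02e-18 and 1.48e-18). *Pfkfb4* measured 8.68, 8.02 and 9.22 CPM in input, 8.87, 9.80 and 9.34 CPM in IgG and 72.5, 75.9 and 76.9 CPM in p-UPF1 (3.01 and 3.12). In every p-UPF1 library *Pfkfb3* and *Pfkfb4* were higher than in every other library, while the 3 subunits of the enzyme they regulate were lower. *Pfkfb1* and *Pfkfb2*, of the same family, were higher over IgG by less (0.57 and 0.35) and did not meet the combined criterion. For *Pfkfb2*, IgG over input was itself 0.95.

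*Pgam2*, the muscle-type phosphoglycerate mutase and the relative of *Pgam1*, was rare in input at 2.15, 2.17 and 2.60 CPM and in IgG at 1.75, 1.94 and 2.05 CPM, and measured 14.7, 17.3 and 17.0 CPM with p-UPF1 (3.09 over IgG and 2.83 over input). *Pgam1* itself gave -1.11 over IgG. *H6pd*, which carries out the first pentose phosphate steps in the endoplasmic reticulum, measured 19.5, 21.1 and 20.8 CPM in input, 17.8, 16.9 and 19.1 CPM in IgG and 90.1, 89.5 and 87.2 CPM in p-UPF1 (2.31 and 2.12). Its cytosolic counterpart *G6pdx* gave -0.99 over IgG. The lowest of the other pathway genes were *Mpc2*, a subunit of the mitochondrial pyruvate carrier (-2.03), *Sdhb*, the iron-sulfur subunit of succinate dehydrogenase (-1.97), and *Pdk3*, a kinase that inhibits pyruvate dehydrogenase (-1.95).

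**Figure D5:**
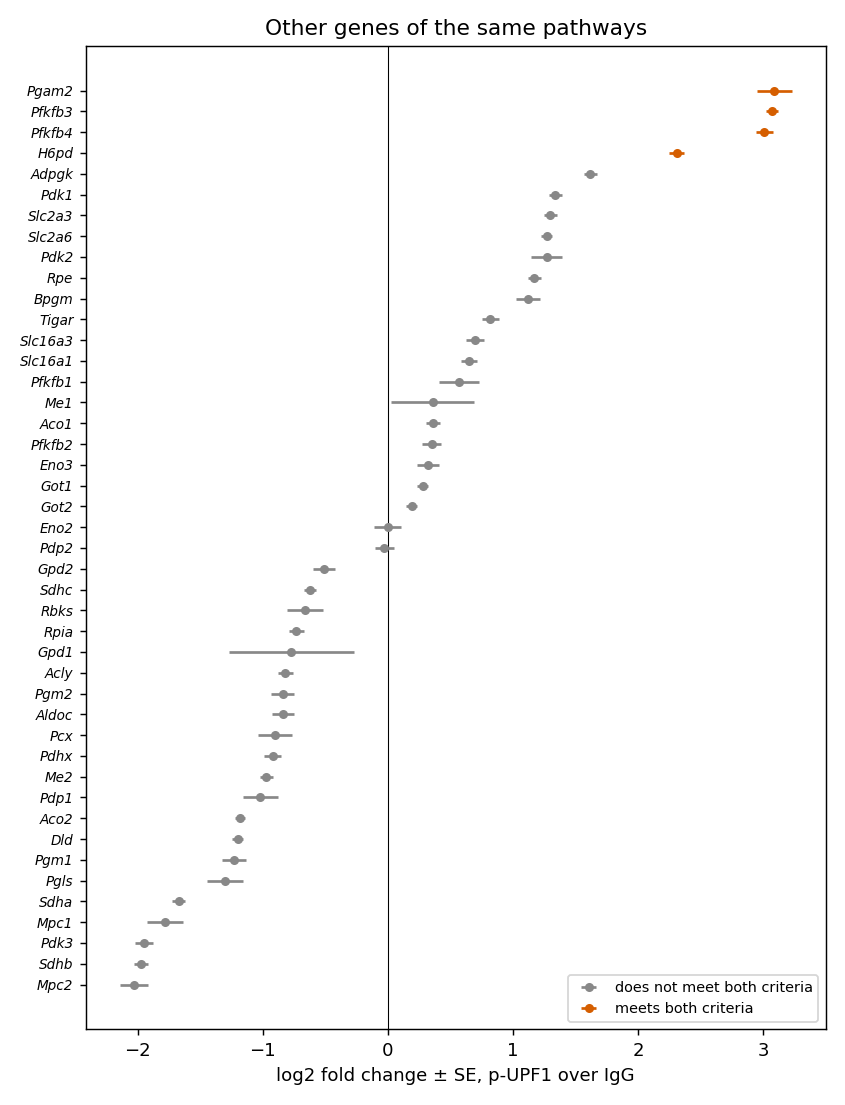
Log2 fold change (± SE) of p-UPF1 over IgG for the 44 tested genes of the same pathways that are not among the 37 members. *Pgam2*, *Pfkfb3*, *Pfkfb4* and *H6pd* (orange) met the combined criterion and lie between 2.31 and 3.09, and the remaining genes spread on either side of 0 down to -2.03 for *Mpc2*.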

How the data were processed

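RIP-seq libraries were 3 input, 3 IgG and 3 p-UPF1. The authors deposited raw read counts per gene, 1 column per library, by NCBI Gene number. The submitters' processing notes name cutadapt, HISAT2, featureCounts and mm10, without versions. The kit was directional, and the study's methods name unstranded mapping for its RNA-seq without a setting for RIP-seq, so genes overlapping on opposite strands cannot be told apart with certainty. Columns carry letters and were assigned to groups only.

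Symbols and positions were taken from RefSeq (GRCm38) and UTR lengths from GENCODE M21 (longest complete coding transcript per gene). Near-identical loci were found with minimap2 2.31. Genes were filtered with filterByExpr (minimum count 10, minimum total 15) and scaled by TMM, and CPM values use the TMM library sizes. The model held the 3 groups without covariates, with 6 residual degrees of freedom. Contrasts were tested with edgeR 4.0.16's quasi-likelihood test (two-sided, prior count 0.125) in R 4.3.3, with Benjamini-Hochberg adjustment over 13129 genes. Ratios of 2 genes were tested with a two-sided exact permutation test (scipy 1.17.1). DESeq2 1.42.0, limma-voom (limma 3.58.1), other scalings, filters and left-out libraries were alternatives. Reads carry no molecular identifiers, so counting error understates the true error.

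Library values are given for the 5 highest and 5 lowest members over IgG and for the 12 pairs of related enzymes, and other members are given by means or fold changes. The named genes outside the members met the combined criterion, were the 3 lowest over IgG, or overlap a member on the opposite strand. *Dld*, *Pfkfb1* and *Pfkfb2* were added after their values were seen. The members and the 51 other genes were listed by pathway and not by measured values, but both lists were drawn up with earlier results of these data known.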

Additional observations from a re-analysis of the deposited data

How the results depend on the processing

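The counts of members called in each comparison stayed within 1.5 times their reported values under 21 alternative settings. Members lower with p-UPF1 numbered 33 to 35 over IgG and 33 to 34 over input, and members higher numbered 2 over IgG and 2 to 3 over input. Leaving out 1 library at a time gave 33 to 34 lower over IgG, 34 lower over input, and 24 to 26 lower and 3 to 4 higher in IgG than in input. The median over the members ran from -1.61 to -1.38 over IgG, from -1.76 to -1.56 over input, and from -0.27 to -0.11 for IgG over input. Library totals alone and upper-quartile factors moved the median of all genes over IgG by -0.16 and -0.14, and a TMM reference from IgG moved that over input by 0.13. For IgG over input, 18 to 27 members were lower and 3 to 5 higher, and the share of higher calls among all called genes, 34.4% as reported, was 48.5% without a filter, 52.6% with library totals, 45.1% with upper-quartile factors, 51.2% and 50.2% with a TMM reference from input or IgG, and 51.1% with the 2 groups alone. *Pgd* over input did not pass without a filter (-0.05) or with a TMM reference from IgG (-0.05). *Ogdh* over input passed as higher under 8 settings. Signs turned for values near 0. *Pgd* over IgG became 0.0316 without a filter, 4e-04 with a CPM filter, 8e-04 with RLE factors and with DESeq2, and 0.0148 with a TMM reference from IgG, and ran from -0.0527 to 0.0611 with 1 library left out (0.0084 without p-UPF1 library A, 0.0611 without IgG library B). In IgG over input, *Pfkl* became 0.0433 without a filter, 0.0703 with library totals, 0.0246 with upper-quartile factors, 0.0619 and 0.0551 with a TMM reference from input or IgG, and 0.062 with the 2 groups alone. *Pkm* became 0.023, 0.0145, 0.0077 and 0.0146 with library totals, an input reference, an IgG reference and the 2 groups alone. *Pdha1* became 0.0618 without a filter, 0.0892 with library totals, 0.0435 with upper-quartile factors, 0.0038 with RLE factors, 0.0039 with DESeq2, 0.0804 with an input reference, 0.0738 with an IgG reference and 0.0806 with the 2 groups alone. With 1 library left out, *Ldhb* ran from -0.3743 to 0.0184 (without IgG library A) and *Suclg2* from -0.0036 (without IgG library B) to 0.0605, with -0.0034 without input library C. Each of these results missed the threshold as reported, and the cause was not tested. The labels number the replicates while the count columns bear letters. The study's methods take input and precipitates from cell lysate, but nothing given says that a letter marks a shared lysate or culture. Same-lettered libraries deviated together little (r = -0.005 to 0.054 across genes), and only A and B correlated best with their own letter, so the letters were not taken to pair the libraries. A replicate block on the letter, chosen after seeing the data, gave 34 lower and 2 higher members over IgG, 34 and 3 over input, and 27 and 4 for IgG over input. Under this replicate block, 4 results that had missed the threshold passed, *Hk2* over IgG (-0.09), *Ogdh* over input (0.09), and *Pkm* (-0.09) and *Idh3b* (-0.12) for IgG over input, and no reported call was lost. Depth limits *Ldhb*, with 4 to 9 counts per p-UPF1 library.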
